A study of Mus musculus with 14 samples.

Results

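The mGluR6 cascade is the set of proteins through which ON bipolar cells of the retina answer glutamate from photoreceptors, and its genes are described here across cell types and genotypes. The 10 genes were listed by name for their known roles, with no threshold on measured values: *Grm6*, *Trpm1*, *Gpr179*, *Nyx*, *Lrit3*, *Gnao1*, *Rgs7*, *Rgs11*, *Gnb5* and *Gng13*. They are 10 of the 28316 genes in the retina table, and the nuclei they are known for are the 4036 labelled rod bipolar (RBC) and the 9813 labelled cone bipolar (CBC) of 77676 retina nuclei. The study asked what loss of TGF-beta signaling in endothelial cells (ECs) does to the vessels of the retina and brain. Nuclei were profiled with PIPseq, a droplet method in which each RNA molecule gets its own tag (a unique molecular identifier, UMI) and is counted once however often it was amplified. The retina gave 12 libraries and brain vascular fragments gave 2.

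The conditional knockout (CKO) retinas, in 11 libraries, came from VEcadCreER;Tgfbr1 CKO/- mice, also written Cdh5CreER, with 1 floxed and 1 null allele of *Tgfbr1*. They received 4-hydroxytamoxifen (4HT) between P3 and P5, that is postnatal days 3 to 5, and the Cre is active in ECs, so bipolar cells keep their floxed allele and carry the null allele throughout. The control retinas, in 1 library, are labelled wild type, and the labels do not say whether they were given 4HT. The labels call the mice young adults and the study gives P14 for the retinas profiled. How many mice stand behind a retina library is not stated, and each brain library, 1 CKO and 1 control, pools fragments from 2 brains. The control was made in batch 1 together with CKO replicates 1 to 3, while replicates 4 and 5 form batch 2 and replicates 6 to 11 batch 3. The v5.0 PIPseq kit was used for CKO replicates 8 to 11, and v4.0 PLUS for the other libraries.

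In darkness photoreceptors release glutamate, and the receptor mGluR6 on ON bipolar dendrites then acts through the G protein Go to keep the cation channel TRPM1 closed. Light lowers glutamate, GTPase-accelerating regulators switch Go off, and the channel opens, so the cell depolarizes. Rod bipolar cells are of this ON type, cone bipolar cells are either ON or OFF, and mutations in several of these genes cause congenital stationary night blindness.

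The control retina library held 30989702 UMIs in 11513 nuclei, and CKO libraries ran from 90449 UMIs in 104 nuclei (replicate 4) to 55803724 UMIs in 18862 nuclei (replicate 5). Replicate 4 had no bipolar nuclei, so the bipolar comparisons use the control and 10 CKO libraries. The control had 572 RBC nuclei with 2092667 UMIs, and CKO libraries had from 160 to 1003 nuclei, with a lowest, median and highest total of 703079, 1262360 and 4024412 UMIs. CBC nuclei numbered 1301 in the control, and the lowest, median and highest CKO libraries had 375, 577 and 2299. Median UMIs per RBC nucleus were 3261 in the control, 1870 to 4005 in CKO libraries made with v4.0 PLUS and 5563 to 7869 in those made with v5.0. Retina libraries shared 10 nucleus barcodes, which cover 20 of 77676 nuclei. A level below is in CPM, the UMIs of a gene for every 1000000 UMIs of its label in a library, from UMI counts the authors deposited. Intervals are exact 95% intervals and cover counting error only.

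The labels were checked against marker genes. All 6 RBC markers had their highest mean level in RBC, led by *Prkca* at 14611 CPM, and their summed level was 16204 ± 4310 CPM in RBC (SD, n = 11 libraries) and 1577 in CBC. Of the 6 CBC markers, *Scgn*, *Vsx1*, *Grik1*, *Neto1* and *Tacr3* were highest in CBC, and *Cabp5* was higher in RBC (334 CPM) than in CBC (186 CPM). Rod markers were also present in RBC. All 6 had UMIs there, their sum was 3543 ± 487 CPM against 14920 in rods, *Sag* was the most abundant at 2219 CPM, and the control RBC sum of 3298 lay within the range of the 10 CKO libraries, 2836 to 4576. Cone markers summed to 162 CPM in control RBC, below 9 of 10 CKO libraries (106 to 350), and to 171 in control CBC, again below 9 of 10 (169 to 422). Horizontal cell markers in RBC were at 9.56 CPM in the control, also below 9 of 10 (6.80 to 23.6). In CBC they were at 20.6, again below 9 of 10 (19.9 to 30.0). Amacrine cell markers in the control were below 8 of 10 CKO libraries in RBC (10.5 against 8.15 to 35.3) and in CBC (25.7 against 20.6 to 56.4). RBC markers were in turn present outside the bipolar labels, with sums from 486 CPM in Müller glia to 1291 in astrocytes, most of it *Prkca*. Between these lay GABAergic (1121) and glycinergic amacrine cells (1004), rods (1115), horizontal cells (961), immune cells (897), ganglion cells (801) and cones (510.4). The part of RNA from other cell types in the levels below was not tested.

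UMIs of *Tgfbr1*, the deleted gene, are summed over the whole gene, so they cannot check the deletion of an exon. In RBC it stood at 49.2 CPM in the control (40.2 to 59.7) and at 31.4, 41.8 and 53.1 in the lowest, median and highest CKO library. In CBC the control value of 128 CPM (119 to 138) was above all 10 CKO libraries, which ran from 97.8 to 119.9. The retina labels include no ECs. In brain ECs control *Tgfbr1* was 69.1 CPM (62.5 to 76.2), and the CKO value was 62.9 (57.1 to 69.1).

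The receptor gene *Grm6* encodes mGluR6 and lies on chromosome 11 at 50741512 to 50757035, plus strand (ENSMUSG00000000617.15, GRCm39). Its level was 845 ± 120 CPM in RBC (SD, n = 11), 287 ± 47.4 in CBC, 51.4 in horizontal cells, 47.3 in immune cells and 42.4 in ganglion cells. It then fell through amacrine cells (33.4 in glycinergic and 24.3 in GABAergic), astrocytes (11.2) and Müller glia (8.61) to 0.799 in cones and 0.290 in rods. RBC exceeded CBC in 11 of 11 libraries, by 2.95-fold on the geometric mean and by 2.36 to 3.46-fold in single libraries. Both gaps, from RBC to CBC and from CBC to the next label, were larger than the SD between libraries, and each step between neighbours from horizontal down to GABAergic amacrine cells was within it. Horizontal and immune cells had at least 50 nuclei in only 4 libraries, and astrocytes in 1. The authors clustered the nuclei on all genes, so all label differences are given without a test.

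The channel gene *Trpm1* lies on chromosome 7 at 63803583 to 63922019, plus strand (ENSMUSG00000030523.20). It was the member with the largest RBC to CBC ratio, at 7345 ± 1662 CPM in RBC and 1035 in CBC, 6.95-fold on the geometric mean and 5.27 to 8.35-fold in single libraries. Horizontal cells followed at 282 CPM, immune cells at 268 (0 to 514 over 4 libraries) and ganglion cells at 225, and rods were last at 0.855. The part of RBC RNA in the levels of these labels cannot be told from their own. RBC held 66.1% of all *Trpm1* UMIs of the retina labels and CBC 25.1%.

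**Figure D1:**
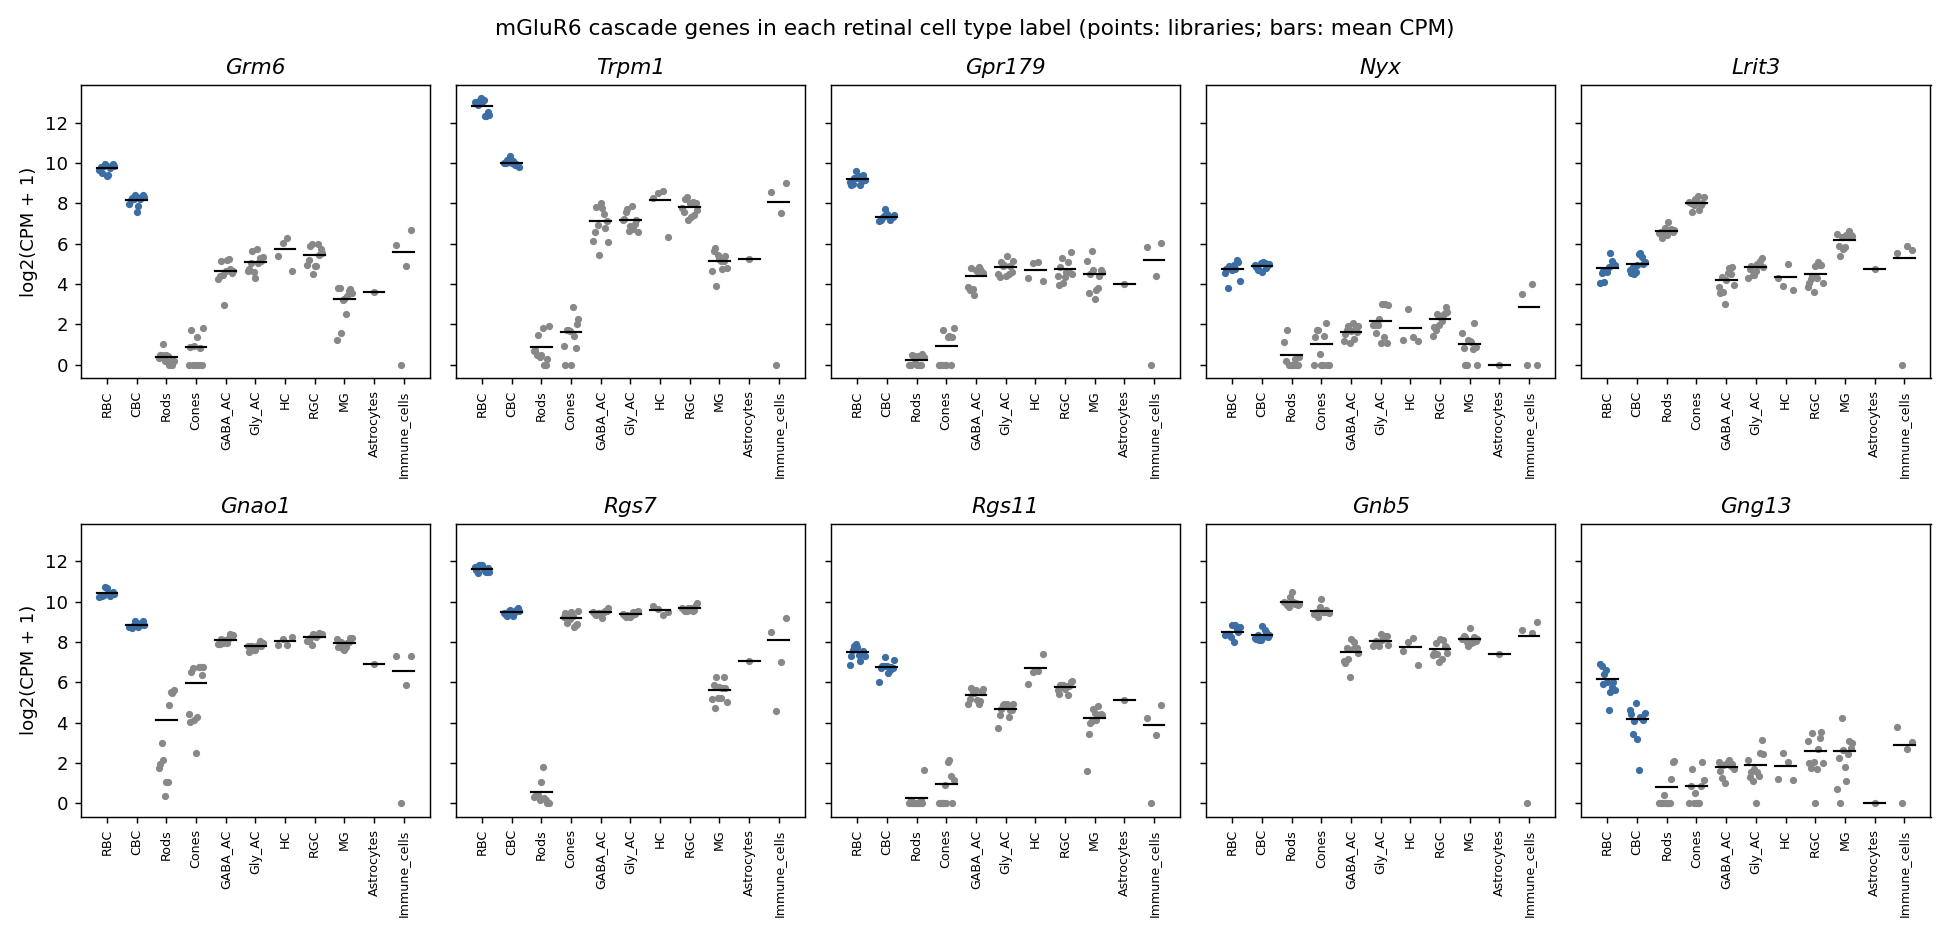
Level of each of the 10 genes, as log2(CPM + 1), in each of the 11 retinal cell type labels; points are libraries with at least 50 nuclei of the label, bars are mean CPM, and RBC and CBC are in blue. In 7 of the 10 genes RBC has the highest mean, *Nyx* is highest in CBC, *Lrit3* in cones and *Gnb5* in rods.

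Of the scaffold genes, *Gpr179* encodes an orphan receptor that holds regulator complexes near the receptor (chromosome 11, 97222935 to 97242903, minus strand, ENSMUSG00000070337.5). Its order resembled that of the receptor, with 588 CPM in RBC, 161 in CBC, 35.1 in immune cells and 27.1 in glycinergic amacrine cells, down to 0.170 in rods. RBC exceeded CBC 3.63-fold, in 11 of 11 libraries. *Nyx*, on chromosome X at 13327355 to 13359058 (plus strand), encodes nyctalopin, a leucine-rich protein that keeps TRPM1 at the dendritic tips. It stood at 28.3 ± 3.24 CPM in CBC and 25.3 ± 6.52 in RBC, a gap within the SD, with RBC the higher in 4 of 11 libraries. The next label, immune cells, was at 6.26 CPM. *Lrit3*, on chromosome 3 at 129581530 to 129597679 (minus strand), encodes another leucine-rich protein that TRPM1 needs for its place at the synapse. It was a photoreceptor gene by level, at 260.5 ± 42.1 CPM in cones and 97.2 ± 14.6 in rods, then 72.5 in Müller glia. CBC was at 31.1 CPM and RBC, seventh of 11 labels, at 26.7, and both differed from their direct neighbours in the order by less than the SD. RBC exceeded rods in 0 of 11 libraries, and so did CBC.

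*Gnao1* encodes the alpha subunit of Go (chromosome 8, 94536594 to 94696016, plus strand). It stood at 1369 ± 162 CPM in RBC, 460 ± 36.6 in CBC and 303 ± 37.3 in ganglion cells, and amacrine cells, horizontal cells and Müller glia lay between 219 and 276. RBC exceeded CBC in 11 of 11 libraries (2.97-fold), and the gaps from RBC to CBC and from CBC to ganglion cells were larger than the SD. *Gng13* encodes a gamma subunit that pairs with the beta subunit of *Gnb3* (chromosome 17, 25936145 to 25938380, plus strand). It was a sparse gene with 69.7 ± 29.3 CPM in RBC, 16.9 in CBC and 6.31 in immune cells. RBC was higher in 11 of 11 libraries, 4.48-fold, though single libraries ran from 2.27 to 11.1-fold. *Gnb3* was highest in cones (1068 CPM), then RBC (731) and CBC (407), and RBC exceeded CBC 1.80-fold in 11 of 11 libraries.

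The regulator *Rgs7* encodes a protein that speeds GTP hydrolysis by the alpha subunit (chromosome 1, 174885703 to 175320066, minus strand). Its level was 3176 ± 334 CPM in RBC, 3.93 times that of ganglion cells (809), and CBC (712) stood between horizontal (762) and GABAergic amacrine cells (706), with both gaps within the SD. *Rgs11*, its partner in the same task, lies on chromosome 17 at 26421904 to 26430829 (plus strand). It reached 178 ± 38.3 CPM in RBC, 108 in CBC and 103 in horizontal cells, and the latter pair did not separate. RBC exceeded CBC 1.66-fold, the smallest ratio among the 7 genes highest in RBC, yet in 11 of 11 libraries. *Gnb5* encodes the beta subunit bound to both regulators (chromosome 9, 75213524 to 75253203, plus strand). Rods led at 1023 ± 166 CPM, then cones at 752, RBC at 361 and CBC at 324, and the last 2 did not separate, although RBC was the higher in 10 of 11 libraries.

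Levels of different genes are set side by side here per kilobase of gene span, and whether UMI counts of these kits grow with span was not tested. In RBC *Trpm1* led with 62.0 CPM per kilobase, then *Grm6* with 54.4, *Gng13* with 31.2, *Gpr179* with 29.4 and *Rgs11* with 20.0. *Gnb5* (9.11), *Gnao1* (8.59) and *Rgs7* (7.31) followed, and *Lrit3* (1.65) and *Nyx* (0.800) were last on this scale. In CBC *Grm6* led with 18.5 CPM per kilobase, ahead of *Rgs11* with 12.05 and *Trpm1* with 8.74. Members share little by position: *Gng13* and *Rgs11*, both on chromosome 17, are 483523 bases apart, and *Grm6* and *Gpr179*, both on chromosome 11, are 46465899 bases apart. Genes on the opposite strand overlap some members, the most abundant being *Fam234a* over *Rgs11* with 64.8 CPM in RBC, and how the counting used the strand is not stated.

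A share of nuclei with at least 1 UMI depends on depth, and median UMIs were 3390 per RBC nucleus, 3496 per CBC nucleus, 1064 per rod and 2170 per cone. After nuclei with at least 1000 UMIs were thinned to that number, *Trpm1* was found in 98.8% of RBC, 42.8% of CBC and 0.0798% of rods. *Grm6* was found in 59.1% of RBC, 21.4% of CBC and 0.0233% of rods. For *Gpr179* the shares were 48.9% of RBC, 14.2% of CBC and 0.0421% of cones, and *Nyx* had 2.81% and 2.91% with 0.0398% in rods. *Rgs7* was in 91.3% of RBC, 43.4% of CBC and 41.9% of cones but 0.0657% of rods. *Lrit3* was in 1.53% of RBC and 24.5% of cones, and *Gnb5* in 23.9% of RBC and 62.4% of rods, so neither has rods as a label that lacks it.

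Likeness of pattern was measured as Pearson's r of log2(mean CPM + 1) over the 11 labels, which share libraries and differ in depth, among 11118 genes with at least 20 CPM in some label. The genes most like *Grm6* were *Trpm1* (0.993), *Gm20754* (0.989), *Gm38353* (0.988), *Trnp1* (0.984) and *Fam135b* (0.980). Those most like *Trpm1* were *Gm20754* (0.993), *Grm6* (0.993), *Gm38353* (0.986), *Fam135b* (0.982) and *9030624G23Rik* (0.979). Other members came at 0.977 with *Grm6* for *Gpr179*, 0.903 for *Rgs11*, 0.887 for *Gnao1*, 0.880 for *Nyx*, 0.851 for *Gng13* and 0.717 for *Rgs7*. *Gnb5* (-0.49) and *Lrit3* (-0.69) ran opposite to the receptor gene.

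Promoters are shown for *Grm6* and *Trpm1*, the genes that likeness was measured from, and for *Gnb5*, the other member that holds the motif searched. They are the 250 bases before a RefSeq start, on the GRCm38.p6 build, for 9 members with 11 promoters, since *Rgs11* has no entry. The motif TAATCC, of the type bound by photoreceptor and bipolar homeobox factors, or its other strand GGATTA, is in 6.25% of 32851 promoters (2054) and in 1 promoter each of 2 members. Capitals mark it, 34 bases before the start for *Trpm1* (chr7:64153585-64153834, plus strand) and 6 before it for *Gnb5* (chr9:75306038-75306287, plus strand). The second *Trpm1* promoter (chr7:64185209-64185458, plus strand) and the *Grm6* window (chr11:50850435-50850684, plus strand) have no match. A match is a description of letters only.
Grm6: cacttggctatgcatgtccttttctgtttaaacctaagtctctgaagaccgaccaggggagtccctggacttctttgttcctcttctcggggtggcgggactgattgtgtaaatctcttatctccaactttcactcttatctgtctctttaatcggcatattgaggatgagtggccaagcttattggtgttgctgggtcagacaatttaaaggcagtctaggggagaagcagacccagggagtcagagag
Trpm1: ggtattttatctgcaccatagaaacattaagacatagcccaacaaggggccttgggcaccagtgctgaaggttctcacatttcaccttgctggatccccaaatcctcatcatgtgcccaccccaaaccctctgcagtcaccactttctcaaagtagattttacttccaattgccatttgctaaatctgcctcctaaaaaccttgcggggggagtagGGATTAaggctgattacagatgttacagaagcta
Gnb5: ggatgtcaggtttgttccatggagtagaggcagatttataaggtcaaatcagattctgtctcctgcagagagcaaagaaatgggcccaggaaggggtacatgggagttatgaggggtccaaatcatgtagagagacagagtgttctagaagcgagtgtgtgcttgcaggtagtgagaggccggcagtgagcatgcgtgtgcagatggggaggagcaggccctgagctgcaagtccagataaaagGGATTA

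Cone bipolar nuclei carry 1 label for both response types, so the members were compared between an ON side, nuclei with at least 1 *Isl1* UMI and no *Grik1* UMI, and an OFF side with the reverse. The ON side had 2816 nuclei (28.3% ± 3.75 of CBC, SD, n = 11 libraries), the OFF side 3670 (37.9% ± 2.09), 1687 had both genes and 1640 had neither. The median CKO library had 4104 UMIs per nucleus (median) on the ON side and 3476 on the OFF side, and the comparison was paired within 11 libraries. The edgeR quasi-likelihood test with Benjamini-Hochberg adjustment called 2498 of 13246 genes (18.9%) at an adjusted p below 0.05, 1148 higher on the ON side (8.67%) and 1350 lower (10.2%). It called 8 of the 10 members, all higher on the ON side. The median log2 difference of all 10 was 1.66, against -0.016 over all genes tested. RBC markers rose with the ON side too, with a summed level of 1481 CPM there (944 to 2034) and 681 on the OFF side (at most 857), beside 16204 in RBC. *Prkca*, *Car8*, *Vstm2b* and *Bhlhe23* were higher on the ON side in 11 of 11 libraries, *Sebox* in 4 and *Cabp5* in 0. *Isl1*, which chose the sides, was itself higher in RBC (1074 CPM) than in CBC (318). The part of RBC nuclei or RNA in the differences between the sides was not tested. The share of all genes tested whose sides do not overlap over the libraries is not given, so lack of overlap below describes single genes only.

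*Grm6* had 310 to 534 CPM on the ON side and 9.28 to 92.5 on the OFF side, with medians of 452 and 37.2. The sides did not overlap, and every library was higher on the ON side, with a log2 difference of 3.42 (SE 0.13, edgeR adjusted p 9.1e-23, 11 of 11 libraries). *Trpm1* ran from 928 to 1418 CPM on the ON side and from 191 to 378 on the OFF side. It too did not overlap, with a log2 difference of 1.91 (SE 0.06, edgeR adjusted p 8.2e-26, 11 of 11 libraries), smaller than that of the receptor gene. Of the scaffolds, *Gpr179* had 174 to 292 against 17.7 to 64.0 CPM, a log2 difference of 2.42 (edgeR adjusted p 6.4e-20, 11 of 11). *Nyx*, at like levels in RBC and CBC as a whole, was split by side without overlap, at 28.4 to 55.1 against 5.38 to 15.3 CPM, a log2 difference of 1.97 (edgeR adjusted p 2.4e-14, 11 of 11). *Lrit3* was not called, with a mean of 30.6 CPM on the ON side and 27.5 on the OFF side, a log2 difference of 0.10 (edgeR adjusted p 0.65, higher in 8 of 11).

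**Figure D2:**
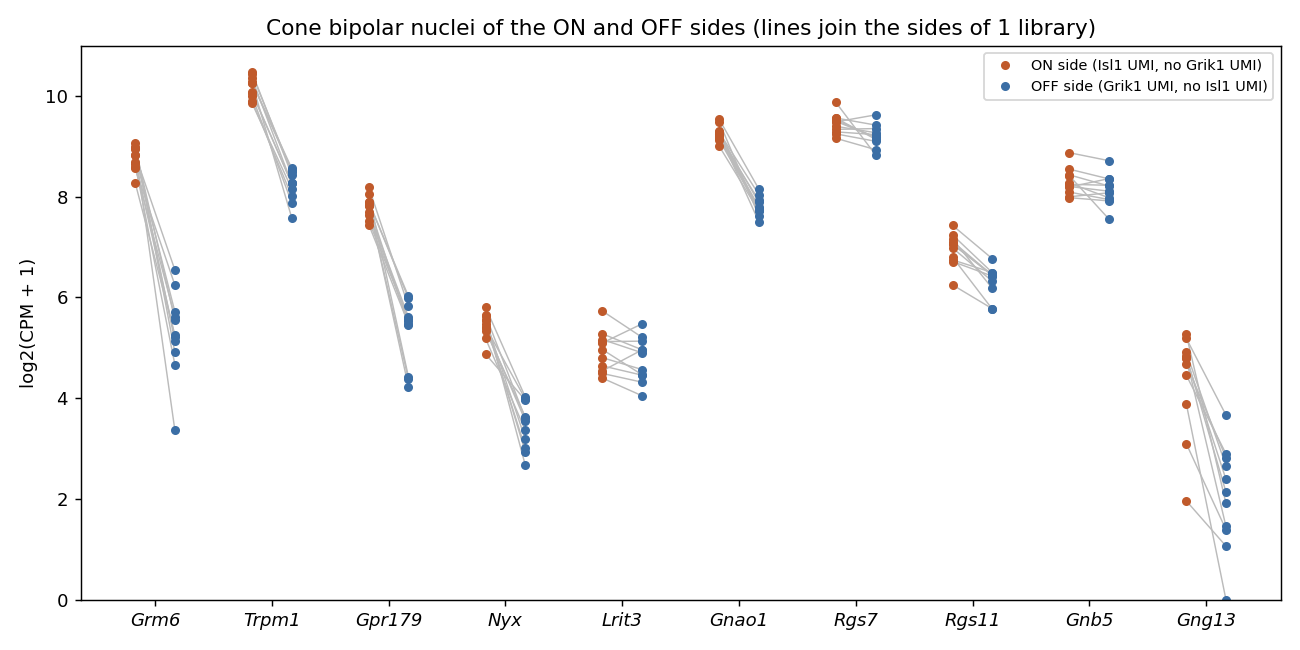
Level of each gene, as log2(CPM + 1), on the ON side (*Isl1* UMI, no *Grik1* UMI) and the OFF side (the reverse) of cone bipolar nuclei, 1 point per side and library, with lines joining the sides of each of the 11 libraries. *Grm6*, *Trpm1*, *Gpr179*, *Nyx* and *Gnao1* do not overlap between the sides, and *Lrit3*, *Rgs7* and *Gnb5* overlap widely. The share of all genes without overlap is not given.

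Of the G protein genes, *Gnao1* had 514 to 744 CPM on the ON side and 181 to 284 on the OFF side, without overlap, a log2 difference of 1.41 (edgeR adjusted p 9.4e-23, 11 of 11). *Gng13* overlapped, at 2.90 to 37.5 against 0 to 11.7 CPM, but each library was higher on its own ON side, with a log2 difference of 2.40 (SE 0.22, edgeR adjusted p 8.9e-12). Among the regulators *Rgs11* had a mean of 126 CPM against 80.6, a log2 difference of 0.58 (edgeR adjusted p 6.6e-09, 11 of 11), with overlap between the sides. *Rgs7* had 704 against 596 CPM and a log2 difference of 0.19 (edgeR adjusted p 0.035, 9 of 11 libraries), and the call was lost with DESeq2 (adjusted p 0.14). It was also lost without CKO replicate 2 (edgeR adjusted p 0.052), 5 (0.068), 6 (0.091) or 11 (0.051). Over the alternatives its adjusted p ran from 2.8e-06 to 0.14. *Gnb5* was not called (log2 difference 0.10, edgeR adjusted p 0.27, 9 of 11). The receptor, channel, scaffold and G protein genes thus differed more between the sides than the regulator genes *Rgs7*, *Rgs11* and *Gnb5*, *Lrit3* excepted, a difference between genes that was not tested.

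Another choice took as OFF side nuclei with a *Grik1* or *Gria1* UMI and no *Isl1* UMI, and as ON side nuclei with *Isl1* and neither. Between the sides above *Gria1* was not called (log2 difference 0.0099), and among the labels it was highest in RBC, at 559 CPM. The part of the changed definition in the values that follow was not tested. With it edgeR called 1410 of 12628 genes and the same 8 members, and most of the differences were smaller. The log2 difference fell to 2.53 for *Grm6*, 1.70 for *Trpm1*, 1.36 for *Gpr179*, 1.36 for *Nyx*, 1.04 for *Gnao1*, 1.80 for *Gng13* and 0.55 for *Rgs11*, and it rose to 0.41 for *Rgs7*.

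Nuclei of the OFF side held 4.26% of the *Grm6* UMIs of CBC and those of the ON side 43.5%, and 41.7% were in nuclei with both genes. *Trpm1* had 8.98% on the OFF side and 52.1% in nuclei with both genes, and *Gnb5* had 28.3% and 35.7%. The mean *Trpm1* level in nuclei with both genes was 1848 CPM (1453 to 2302), above the ON side (mean 1169, highest 1418). *Rgs7* (907 CPM against 704), *Lrit3*, *Gnb5* and *Gng13* also had higher means there than on the ON side. Those of *Grm6*, *Gpr179*, *Nyx*, *Gnao1* and *Rgs11* were lower there. Of 7 other cascade genes, 3 were called, all higher on the ON side: *Pcp2* (log2 difference 2.85), *Gnb3* (1.55) and *Prkca* (1.39). Of 10 genes of the photoreceptor side of the synapse, *Cacna2d4* was higher (0.13) and 5 were lower, *Cacnb2* (-0.30), *Cabp4* (-0.30), *Egflam* (-0.27), *Slc17a7* (-0.23) and *Cacna1f* (-0.18). Of 7 bipolar transcription factors, *Isl1* chose the sides, *Otx2* (0.24) and *Bhlhe23* (1.07) were higher and *Prdm8* (-1.02) was lower. Of the 3 OFF receptor genes *Grik1* chose the sides, *Neto1* was lower (-5.41) and *Gria1* was not called (0.0099).

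Whether these genes differ in retinas whose ECs lost *Tgfbr1* was tested in RBC, in CBC and for the ratio of RBC to CBC within libraries. All 10 members passed the filter of 50 UMIs in each. With 1 control library, the spread is that between CKO libraries, p-values measure only the spread between these libraries, and an exact permutation test of 1 against 10 cannot go below 0.0909. In RBC 0 of 10 members were called by the edgeR quasi-likelihood test, against 1 of 11564 genes (0.00865%), with 1 member and 468 genes at an unadjusted p below 0.05, and DESeq2 called 0 members and 26 genes. In CBC 0 of 10 were called, against 1 of 14562 genes (0.00687%), with 1 member and 539 genes at an unadjusted p below 0.05, and DESeq2 called 0 members and 18 genes. For the ratio edgeR called 0 of 10, against 2 of 15425 genes (0.013%), with 0 members and 646 genes at an unadjusted p below 0.05, and DESeq2 called 0 genes. The called genes, named after their values were seen, were *Tafa2* in RBC (log2 change -4.49) and in the ratio (-4.44), *Maml2* in the ratio (-1.27) and *Gm17167* in CBC (-1.96). With 1 CKO library left out, edgeR called 0 genes in RBC without replicate 1, 2, 8, 9 or 11, and at most 5, without replicate 7. In CBC it called 0 without replicate 1, 3, 5, 6, 8, 9 or 11 and at most 3, without replicate 10, and for the ratio from 1 (without replicate 1) to 8 (without replicate 5). The 1 UMI filter raised the counts to 24 of 22853 genes in RBC, 2 of 24098 in CBC and 62 of 24300 for the ratio, and within batch 1 they were 8 of 8581, 0 of 11745 and 45 of 12524. Unlike the called genes named above, which were all lower in CKO, most genes in the larger counts were higher. DESeq2 had 25 of 26 higher in RBC and 17 of 18 in CBC, the 1 UMI filter 20 of 24 in RBC and 41 of 62 for the ratio, and batch 1 had 5 of 8 in RBC and 38 of 45 for the ratio. The count of members stayed at 0 in each of these fits.

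The median log2 change of the members, CKO over control, was 0.10 in RBC (all genes 0.0070), 0.12 in CBC (all genes -0.0036) and -0.05 for the ratio (all genes 0.00029). It was positive for 8, 7 and 4 of the 10 members. Where a control is said below to lie outside the range of the CKO libraries, that position carries no test. The share of all genes with such a control is not given.

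*Grm6* stood at 792 CPM in control RBC (754 to 831) and at 654, 901 and 1000.3 in the lowest, median and highest CKO library. The control lay inside the CKO range, and the log2 change was 0.02 (SE 0.18), with the sign not kept by all alternatives. *Trpm1* stood at 8422 CPM in control RBC (8298 to 8547) and at 5154, 7806 and 9454 in CKO libraries. Again the control lay inside, and the log2 change was 0.0060 (SE 0.13), with a sign that also changed between alternatives. In CBC *Grm6* was at 247 CPM in the control (234 to 261) and 189, 301 and 344 in CKO, and *Trpm1* at 1009 (982 to 1036) and 887, 1031 and 1292. Their log2 changes in CBC were 0.13 (SE 0.21) and 0.12 (SE 0.12), and those of the ratio -0.11 (SE 0.15) and -0.13 (SE 0.13). With each CKO library left out, *Grm6* ran from 0.064 (without replicate 5) to 0.21 (6) in CBC and from -0.15 (6) to -0.057 (2) for the ratio. *Trpm1* then ran from 0.075 to 0.14 in CBC.

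**Figure D3:**
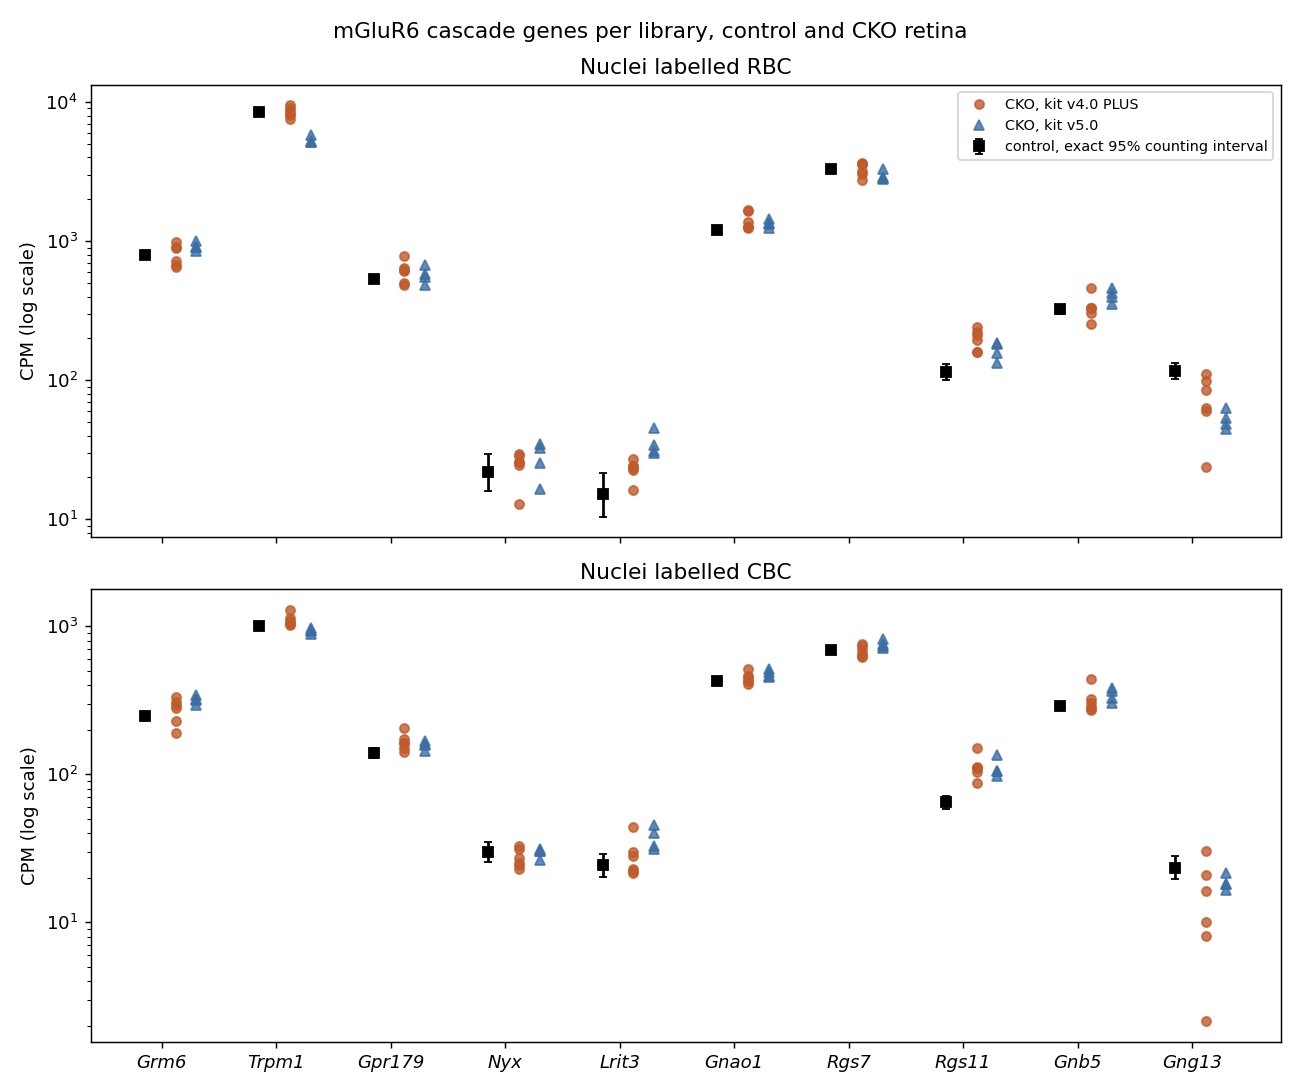
Level (CPM, log scale) of each gene in RBC (top) and CBC (bottom) nuclei, with the control library as a black square with its exact 95% counting interval and CKO libraries as circles (v4.0 PLUS kit, 6 libraries) or triangles (v5.0 kit, 4 libraries). The control *Rgs11* value, 115 CPM in RBC and 64.6 in CBC, is below all 10 CKO libraries in both, and *Trpm1* in RBC is lower in all 4 libraries of the v5.0 kit than in all others.

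For the scaffolds, *Gpr179* in RBC was at 539 CPM in the control (508 to 571) and 484 to 780.2 in CKO libraries, and in CBC its control value of 139 lay below all 10 of them (143 to 206), though its interval (129 to 149.7) takes in the lowest 2. Its log2 changes were 0.17 (SE 0.22) and 0.25 (SE 0.16). With each CKO library left out, the change in RBC ran from 0.086 to 0.22. *Nyx* in RBC was at 22.0 CPM in the control (16.1 to 29.3) and 12.8 to 35.04 in CKO libraries, so the control interval covers most of that range. *Lrit3* in RBC rested on 32 control UMIs, at 15.3 CPM (10.5 to 21.6) against 16.2, 25.7 and 45.3 in the lowest, median and highest CKO library. The control was below all 10, though the lowest CKO value is inside its interval, and the log2 change of 0.58 (SE 0.34) was not called. Cone markers in RBC had the same direction, and their part in the change was not tested.

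*Gnao1* in RBC was at 1212 CPM in the control (1166 to 1260.4), below all 10 CKO libraries (1241 to 1688). The control interval takes in CKO replicates 8 (1241) and 2 (1252). The log2 change of *Gnao1* was 0.22 (SE 0.18), with a range of 0.029 (batch 1) to 0.25 over the alternatives. In CBC the control value of 426 lay inside the CKO range (411 to 519). *Gng13* had the opposite direction in RBC, with 117 CPM in the control (103 to 133, 245 UMIs) and 23.8, 61.3 and 110.4 in CKO libraries. The control was above all 10, its interval takes in the highest of them, and the log2 change of -0.63 (SE 0.39) was not called. In CBC it was at 23.4 CPM in the control and 2.15 to 30.4 in CKO libraries, which overlap.

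Among the regulators, *Rgs7* had a log2 change of -0.015 (SE 0.16) in RBC and -0.04 (SE 0.12) in CBC. With each CKO library left out, its change in CBC ran from -0.067 to -0.012. *Gnb5* had its control value inside the CKO range in RBC (325 CPM against 254 to 461) and in CBC (289 against 273 to 438). *Rgs11* was the only member with an unadjusted p below 0.05 in RBC and in CBC. In RBC it stood at 115 CPM in the control (101 to 130.1, 240 UMIs) and at 132, 183 and 241 in the lowest, median and highest CKO library. In CBC it stood at 64.6 CPM in the control (58.0 to 71.8, 342 UMIs) and at 87.0, 108 and 150.4 in CKO libraries. In both labels the control was below all 10 CKO libraries, its interval included.

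The log2 change of *Rgs11* was 0.78 in RBC (SE 0.24, edgeR unadjusted p 0.0044, adjusted p 0.75, higher in 10 of 10 CKO libraries) and 0.80 in CBC (SE 0.23, edgeR unadjusted p 0.0034, adjusted p 0.97, 10 of 10). It thus failed the adjustment in both. Over the alternatives the adjusted p ran from 0.25 to 1.00 in RBC and from 0.21 to 1.00 in CBC, and the log2 change from 0.55 to 0.85 and from 0.64 to 0.88. The 2 labels come from the same libraries and share the 1 control, and the log2 change of the ratio was -0.04 (SE 0.20). Within batch 1 the 3 CKO libraries had 159 to 222 CPM in RBC, all above the control. Of 9 labels with a control and CKO libraries, the control was lowest in 5. Over all nuclei of a library *Rgs11* was at 31.0 CPM in the control and 42.4 to 63.9 in the 11 CKO libraries. Such a level also depends on the mix of cell types, since *Rgs11* ran from 0.219 CPM in rods to 178 in RBC. CKO replicate 4, among the 11, had 90449 UMIs in 104 nuclei and no bipolar nuclei. The 3 CKO libraries with *Xist* above 1000 CPM, as in the control, had 159 to 193 CPM of *Rgs11* in RBC, and the other 7 had 132 to 241. The part of the animals' sex in the result was not tested beyond the *Xist* covariate among the alternatives. *Fam234a*, which overlaps *Rgs11* on the other strand, was at 60.7 CPM in control RBC and 38.4 to 79.8 in CKO libraries, which enclose it. Horizontal cell markers in RBC and CBC were lower in the control than in 9 of 10 CKO libraries. Their part in the *Rgs11* change was not tested.

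None of the other lists had a call by edgeR in RBC, CBC or the ratio: 0 of 7 other cascade genes, 0 of 10 photoreceptor-side genes, 0 of 7 transcription factors and 0 of 3 OFF receptor genes, of which 6 and 2 of the last lists were tested in RBC. Their median log2 changes in RBC were -0.04, 0.04, -0.06 and 0.01, in CBC 0.03, 0.02, 0.03 and -0.07, and for the ratio -0.09, 0.05, -0.08 and 0.28. *Gnb3* had log2 changes of 0.46 in RBC and 0.56 in CBC, past 0.05 only before adjustment (edgeR unadjusted p 0.044 and 0.023).

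The kit coefficient of the same fits asks what the PIPseq version changes in these genes. With the edgeR quasi-likelihood test 635 of 11564 genes (5.49%) were called between the kits in RBC, 201 higher with v5.0 (1.74%) and 434 lower (3.75%), and *Trpm1* was the 1 member of 10. It had 5154 to 5808 CPM in the 4 CKO libraries of the v5.0 kit and 7567 to 9454 in the 6 of v4.0 PLUS. These do not overlap, and the log2 difference was -0.84 (SE 0.08, edgeR adjusted p 3.0e-05, lower in 4 of 4). In CBC 1447 of 14562 genes (9.94%) were called, 514 higher (3.53%) and 933 lower (6.41%), and again *Trpm1* was the 1 member. It had 887 to 983 against 1028 to 1292 CPM, a log2 difference of -0.42 (SE 0.07, edgeR adjusted p 0.0029, lower in 4 of 4). The summed RBC markers in RBC, of which *Prkca* is 14611 of 16204 CPM, had the same direction, with a mean of 10940 CPM in the CKO libraries of v5.0 and 19036 in those of v4.0 PLUS. Markers of Müller glia (100.2 against 27.3 CPM), ganglion cells (27.4 against 6.37) and amacrine cells (31.6 against 16.3) had the opposite direction in RBC, and astrocyte markers (3.74 against 15.4) the same. In CBC RBC markers were at 1351 against 1713 CPM, CBC markers at 3259 against 4335, Müller glia markers at 119.8 against 29.9 and ganglion cell markers at 26.4 against 8.22. The part of these markers' cells in the *Trpm1* differences was not tested. Of the 7 other cascade genes *Prkca* (-1.08), *Pcp2* (-0.99) and *Gnb3* (-0.70) were lower and *Lrit1* (0.69) higher in RBC. In CBC *Pcp2* (-0.73), *Gnb3* (-0.70) and *Prkca* (-0.59) were lower and *Lrit1* (0.65) higher. Of the transcription factors *Isl1* was lower in RBC (-0.45) and CBC (-0.32), and of the OFF receptor genes *Grik1* (-0.76) and *Gria1* (-0.23) were lower in CBC.

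All v5.0 libraries are in batch 3, which also holds CKO replicates 6 and 7 of v4.0 PLUS. Within batch 3, a comparison added after the data were seen, edgeR called 3 of 10 members in RBC, against 1273 of 9445 genes (13.5%), and 4 of 10 in CBC, against 2105 of 12520 genes (16.8%). The excess of lower over higher genes was not seen there in RBC (647 higher with v5.0, 626 lower) and was smaller in CBC (992 and 1113). *Trpm1* was among them, with log2 differences of -0.93 in RBC and -0.38 in CBC. There *Gnao1* (-0.42) and *Rgs7* (-0.44) were also called in RBC, and *Grm6* (0.40), *Gpr179* (-0.30) and *Gng13* (1.68) in CBC. The *Gng13* difference rests on 21 and 6 UMIs in CKO replicates 6 and 7, at 8.03 and 2.15 CPM. The v5.0 libraries had 16.6 to 21.5 CPM, inside the range of the v4.0 PLUS CKO libraries of all batches, 2.15 to 30.4. Kit and depth per nucleus change together and cannot be told apart. *Xist* over all nuclei was at 0.365 to 0.676 CPM in the v5.0 libraries, and at 0.800 and 5577 CPM in CKO replicates 6 and 7. The part of the animals' sex in the kit differences was not tested. Over all batches, no photoreceptor-side gene was called between kits in either label by edgeR. That is 0 of 10, against 5.49% of all genes in RBC and 9.94% in CBC. Calls of this list were not counted within batch 3.

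The brain libraries, 1 per genotype and with no test, give the levels of the members outside the retina. Over all brain nuclei, control before CKO, *Grm6* stood at 0.100 and 0.290 CPM, *Trpm1* at 1.02 and 1.13, and *Nyx* at 1.10 and 1.13. *Gpr179* stood at 1.35 and 0.773 CPM, and *Lrit3* at 0.261 and 0.387. The G protein and regulator genes were present, *Gnao1* at 294 and 310 CPM, *Rgs7* at 691 and 664, *Rgs11* at 28.5 and 30.9 and *Gnb5* at 37.0 and 32.8. *Gng13* stood at 4.08 and 3.38 CPM, and of the 21 brain labels it was highest in Glut_20, with 271 and 225 CPM (143 of 203 and 40 of 105 UMIs). Glut_21 was next, with 6.12 and 47.1 CPM (7 and 39 UMIs).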

How the data were processed

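Nuclei of 12 retina and 2 brain libraries were profiled. Values are UMI counts per gene and nucleus that the authors deposited, made by their methods with PIPseeker on a GRCm39 index, CellBender for background, SOLO for doublets and curation by hand, of mixed nuclei in general and of clusters in CKO replicates 4 and 5, whereas the labels name mm10 and Seurat. Cell type, batch and kit are the authors' labels. UMIs were summed per label and library with Python 3.11.15, numpy 2.4.6, pandas 2.3.3 and scipy 1.17.1, and drawn with matplotlib 3.10.9. Libraries, not nuclei, were the replicates. Labels needed 50 nuclei in a library and sides 20.

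Sums were tested with edgeR 4.0.16 and limma 3.58.1 in R 4.3.3 (TMM, quasi-likelihood test, two-sided, Benjamini-Hochberg over all genes tested, threshold 0.05). Genes needed 50 UMIs over the libraries and UMIs in both batch 3 and the earlier batches (24645 of 28316). Genotype fits had the kit as a covariate, the ratio and side fits the library as a block. For the lone control library the spread between CKO libraries was taken. Likeness used a pseudocount of 1 CPM. Gene positions are from GENCODE vM39.

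Members, gene lists and markers were chosen with earlier results of these data known. Of the other cascade genes first listed, 1 is not reported, and list counts and medians are without it. The genes named are the 10 members, genes of a list that pass a test and otherwise at most 3 of a list by highest RBC level, and the 5 genes most like *Grm6* and *Trpm1*. Alternatives were no TMM factors, filters of 1 and 500 UMIs, DESeq2 1.42.0, leaving out CKO replicates 4 and 5 or each CKO library, no kit term, v4.0 PLUS only, batch 1 only, an *Xist* covariate, nuclei with at least 1000 UMIs, both sides redefined by *Isl1* against *Grik1* or *Gria1*, pooled UMIs for labels and, added after the data were seen, kit within batch 3 and a covariate for batch 3. Replicate 4 had no bipolar nuclei, so a bipolar fit without CKO replicates 4 and 5 is the same as that without replicate 5. The control library, the only one, could not be left out. The authors' normalized values and embedding were not used.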

Additional observations from a re-analysis of the deposited data

Results flagged for a closer look

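*Gpr179* in CBC stood at 206 CPM in CKO replicate 5 and at 143 to 174 in the other 9 CKO libraries, so that this sample lay far from the others, its gap being 0.513 of the whole range. *Rgs7* on the ON side of CBC stood at 936 CPM in CKO replicate 6 and at 571 to 756 in the others, a gap of 0.495 of the range. Of 40 groups of samples looked at, 2 held such a sample, and chance gives about 1 in 20 groups, or 5%. The cause was not tested for either. Without CKO replicate 6 the log2 difference of *Rgs7* between the sides was 0.13 and its call was lost (edgeR adjusted p 0.091).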

How the results depend on the processing

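The count of members called was 0 in RBC, CBC and the ratio under every alternative run, leaving out each CKO library included. Between the sides it was 8 under all but the ones that lost *Rgs7* (7 with DESeq2 and without CKO replicates 4 and 5, and 7 to 8 when each CKO library was left out). For the kit it rose from 1 to 4 in CBC and to 3 in RBC within batch 3, where only CKO libraries are compared and calls over all genes also rose, from 9.94% to 16.8% and from 5.49% to 13.5%. The cause was not tested for any value here.

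Of single-gene values, 16 reversed and 92 kept their direction in RBC, 5 and 105 in CBC and 6 and 74 for the ratio. Fits with single libraries left out are not counted here. The fit without CKO replicates 4 and 5 is counted, although it is the same as that without replicate 5. In RBC *Grm6* became -0.0019 with the 1 UMI filter, -0.037 without CKO replicates 4 and 5, -0.062 with *Xist* as a covariate and -0.011 in nuclei with at least 1000 UMIs. *Trpm1* became -0.023 with the 1 UMI filter, -0.0036 with the 500 UMI filter, -0.017 without CKO replicates 4 and 5, -0.28 without the kit term, -0.084 in batch 1, -0.047 with *Xist*, -0.014 in nuclei with at least 1000 UMIs and -0.029 with a covariate for batch 3. *Gpr179* became -0.055 in batch 1 and -0.0015 with *Xist*, and *Gnb5* -0.099 with *Xist* and -0.032 with a covariate for batch 3.

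In CBC *Trpm1* became -0.034 without the kit term, *Lrit3* -0.046 in batch 1 and -0.079 with a covariate for batch 3, *Gnao1* -0.019 with *Xist* and *Gnb5* -0.016 with a covariate for batch 3. For the ratio *Rgs7* became -0.0017 without CKO replicates 4 and 5, -0.12 without the kit term and -0.069 in batch 1, and *Gng13* 0.12 with DESeq2, 0.25 without CKO replicates 4 and 5 and 0.097 in batch 1. Within batch 3 the kit difference went from 0.25 to -0.19 for *Lrit3* and from -0.031 to 0.00065 for *Rgs7* in CBC, and from 0.11 to -0.042 for *Gnb5* and from -0.72 to 0.036 for *Gng13* in RBC.

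With each CKO library left out, log2 changes in RBC ran from -0.037 to 0.065 for *Grm6* (reversed without replicate 1, 3 or 5), -0.019 to 0.038 for *Trpm1* (5 or 7), -0.054 to 0.034 for *Rgs7* (1 or 2) and -0.083 to 0.10 for *Gnb5* (6), and in CBC from -0.0039 to 0.25 for *Lrit3* (7). For the ratio they ran from -0.024 to 0.022 for *Rgs7* (reversed without any 1 of replicates 5 to 11), -0.071 to 0.0038 for *Rgs11* (1) and -0.14 to 0.25 for *Gng13* (5). The ON side difference of *Rgs7* ran from 0.13 to 0.24 (edgeR adjusted p 0.0035 to 0.091). Without TMM factors 1399 genes were higher and 1082 lower on the ON side, with a median over all genes of 0.04.

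No paired analysis of genotype was possible because the control carries no replicate number that joins it to a CKO library. In RBC depth limits *Lrit3* and *Nyx* most, with 32 and 46 control UMIs, then *Rgs11* with 240 and *Gng13* with 245. In CBC *Gng13* had the fewest control UMIs, 124, then *Lrit3* with 129 and *Nyx* with 158, and on the OFF side *Gng13* had 5.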

Other observations

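These values were picked after they were seen, carry no test, and their causes were not tested. On the OFF side of CBC the control *Trpm1* value of 191 CPM lay below all 10 CKO libraries (235 to 378), and *Gpr179* at 17.7 did too (19.7 to 64.0). The control interval of *Gpr179* there, 12.1 to 25.1, takes in CKO replicates 9 (19.7) and 10 (20.4). On the ON side the control *Gng13* value of 37.5 CPM lay above all 10. Its interval, 28.9 to 47.9, takes in CKO replicates 5 (35.5) and 11 (29.1). In Müller glia *Rgs11* stood at 1.99 CPM in the control, from 3 UMIs, and at 9.89 to 27.7 in CKO libraries.

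*Gnao1* in rods separated the libraries by kit. The 7 libraries of v4.0 PLUS with rods, the control among them, stood at 0.274, 2.32 and 7.00 CPM (lowest, median and highest), and the 4 libraries of v5.0 at 28.7, 44.5 and 47.6, with no overlap. In cones the kits overlapped, at 4.54 to 104 against 81.4 to 108 CPM.

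In the brain, where 1 library stands for each genotype, values are given control before CKO. *Gnao1* was highest in astrocytes at 1197 and 1317 CPM, and *Rgs7* in the label Glut_19 at 1767 and 1576. *Gnb5* was highest in Glut_20 at 131 and 129 CPM, also the label with the highest level of *Gng13*. *Pcp2*, another gene of the cascade, stood there at 325 and 180 CPM, and at 309 and 252 in Glut_21.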
